A study of Mus musculus with 217 samples.

Results

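The genes described here encode the proteins of the cytosolic ribosome, the particle that translates messenger RNA. Members were the protein-coding genes whose symbol began with Rpl or Rps and a digit, together with Rplp0, Rplp1, Rplp2 and Rpsa, leaving out copies listed as pseudogenes (-ps) and the Rps6k kinases. This gave 86 genes of the 52550 gene identifiers in the count files. Of these, 52 carried a large-subunit symbol and 33 a small-subunit symbol, and 1 gene that matched the rule, Rps19bp1, is a protein that binds Rps19 and not a ribosomal protein. Another 291 -ps genes were not members.

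The series measured the endothelial translatome, that is, the messenger RNA bound to ribosomes of endothelial cells (ECs), in brain, lung and heart. The mice were adult RiboTagEC animals on a C57BL/6J background, with the genotype Cdh5CreERT2/+; Rpl22HA/+. All of them, controls included, carried both alleles and had received 5 mg tamoxifen by gavage 4 times, every other day, from 4 to 6 weeks of age. The Cdh5 promoter drives the tamoxifen-dependent Cre in ECs, which then make the ribosomal protein Rpl22 with an HA tag, so that ribosomes can be precipitated from the homogenised organ with an antibody to HA. Tissue was taken from control mice, which had been injected with PBS (0 hr), or 6, 24, 48, 72 or 168 hr after intraperitoneal lipopolysaccharide (LPS), a bacterial cell wall component, at 10 mg/kg. The question was how the translatome of each EC bed answers systemic inflammation and recovers from it.

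A ribosome has a small and a large subunit, and each ribosomal protein is needed in a fixed number of copies, mostly 1 per particle. The messenger RNAs of most ribosomal proteins begin with a run of pyrimidines, the 5′ terminal oligopyrimidine (TOP) tract, through which growth signals sent by the kinase mTORC1 set how many ribosomes load on them. A precipitation of tagged ribosomes therefore reads the abundance of a transcript and its loading on ribosomes together, which cannot be told apart here. In a whole organ, fewer cells of a type and less RNA per cell cannot be told apart either.

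The pyrimidine run is shown for genes on which the comparisons below turn. RefSeq start sites (mouse build GRCm38.p6) were given for 66 of the 86 members. Each line holds 30 bases of the transcript strand, 10 before the annotated start, with the tract in capitals. A tract was a C followed by at least 4 bases that were each C or T, beginning no more than 5 bases before or after the annotated start.
Rps18, chr17:33955646-33955675, minus strand: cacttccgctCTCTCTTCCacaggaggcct
Rplp2, chr7:141447641-141447670, plus strand: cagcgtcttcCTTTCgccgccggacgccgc
Rps2, chr17:24720053-24720082, plus strand: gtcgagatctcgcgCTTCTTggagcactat
Rpl15, chr14:18270967-18270996, minus strand: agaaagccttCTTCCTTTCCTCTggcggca
Rpl22l1, chr3:28805498-28805527, plus strand: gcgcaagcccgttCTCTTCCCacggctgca
Rps3a1, chr3:86142649-86142678, minus strand: gccggaagggcgaaagagcaagggtcacgt
Rpl10, chrX:74270806-74270835, plus strand: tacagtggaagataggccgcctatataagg
The first 5 hold the tract, and the windows of Rps3a1 and Rpl10 do not, which says only that these letters were not in this window at the annotated start. A tract was found in 30 of the 66 members (45.5%), in 7 of 14 other genes known for TOP messenger RNAs such as elongation factors (50%), in 17 of 69 mitochondrial ribosomal protein genes (24.6%) and in 5718 of all 27025 genes with a start site (21.2%).

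The 217 deposited samples were sequencing runs, and runs of the same tissue, time and replicate were summed into 98 libraries. Of these, 80 held at least 3% of their reads on genes and were kept, with 5, 5, 4, 6, 4 and 4 libraries of brain and of heart at 0, 6, 24, 48, 72 and 168 hr, and 4, 4, 2, 6, 4 and 4 of lung. Counts on genes per library ran from 7226796 to 32891759 in brain, from 284457 to 43417945 in lung and from 8136031 to 33050750 in heart. The libraries fell into 3 series by the naming of their runs, called series 1, 2 and 4 here, and series 4 held no 0 hr or 6 hr library. The EC markers (12 genes such as Cdh5 and Pecam1) summed to 2059 to 4243 CPM (counts scaled to 1000000 per library) in 0 hr brain, 12703 to 17344 in lung and 11379 to 12899 in heart. Markers of neighbouring cells were present as well: the 10 cardiomyocyte markers summed to 4296 to 8798 CPM in 0 hr heart and the 10 alveolar epithelial markers to 7284 to 13090 CPM in 0 hr lung.

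One library of each tissue went against its label. In the series 1 libraries labelled 6 hr (brain replicate 6, lung replicate 4 and heart replicate 5), the mean level of 9 inflammatory genes, a list chosen after the data were seen (Sele, Selp, Icam1, Vcam1, Lcn2, Cxcl1, Ccl2, Saa3 and Cd14), was 2.30, 2.93 and 3.45 log2 CPM in that order. In the other libraries labelled 6 hr it was 7.77 to 9.08 in brain, 7.21 to 7.97 in lung and 9.60 to 10.46 in heart, and at 0 hr it was 1.18 to 2.04, 2.00 to 3.57 and 2.57 to 2.92. These 3 libraries thus sat near the 0 hr ones. They are kept under their label in the first value given for each comparison. Counts and medians of members at 6 hr, and the 6 hr differences of named members in heart, are given again without them, while single genes that are no members are given with them. In lung at 0 hr, replicate 4 also stood apart, with 56.2% of its reads on genes against 18.8% to 28.6% in the other 3 lung libraries. The kept 0 hr libraries held 57.4% to 68.7% in brain and 60.5% to 65.7% in heart. Replicate 4 was thus the lung library nearest to them in this share, and fits without it rest on the lung libraries with the lower share.

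Members drew a small share of all counts on genes. In heart ECs it was 0.411% to 0.567% at 0 hr (median 0.437%, n = 5) and 0.857%, 1.04%, 1.06% and 1.29% in the 4 series 2 libraries at 6 hr, against 0.358% in the library labelled 6 hr of series 1. At 24 hr the heart libraries held 0.545% to 0.910%, with 1 of the 4 inside the 0 hr range, and at 168 hr 0.342% to 0.595% (median 0.380%). In brain ECs the share was 0.380% to 0.559% at 0 hr, 0.404% to 0.629% at 6 hr and 0.665% to 1.02% at 24 hr, so that the 24 hr libraries were all above the 0 hr ones. In lung ECs it was 0.552% to 1.53% at 0 hr, 0.0506% to 1.56% at 6 hr and 1.64% to 3.39% at 72 hr, where all 4 libraries were above the 4 at 0 hr.

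**Figure D1:**
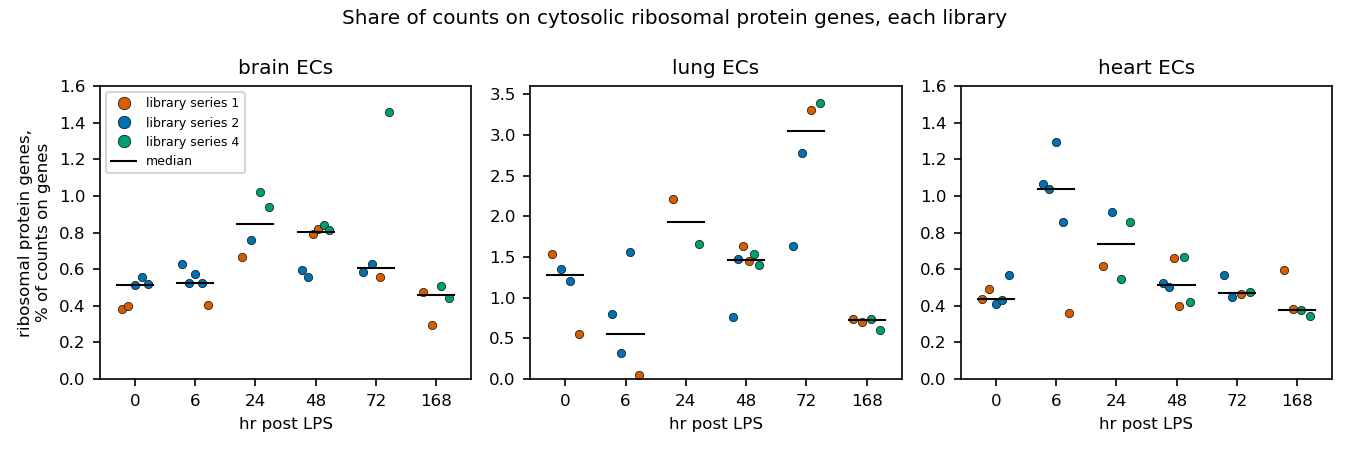
Member share of all counts on genes (percent, y axis) in each of the 80 kept libraries by hours after LPS (x axis), 1 panel per tissue, with points coloured by library series and the median of each group as a bar. The 4 series 2 heart libraries at 6 hr sit between 0.857% and 1.29%, above the 5 heart libraries at 0 hr (0.411% to 0.567%).

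The reads that the counting left out bear on these shares. A read that aligns to more than 1 place was counted for no gene, and ribosomal protein genes have many near-identical copies in the genome. Of all 50-base stretches of a member's protein-coding transcripts, 4.91% to 100% were in no annotated transcript of another gene (median 64.2%). In 29 of 86 members under 50% were. These stretches are called unique here, but the genome outside annotated transcripts was not searched. Since reads with more than 1 alignment were not counted, the levels are those of the part of each gene that aligns once. The share of unique stretches was 20.6% in Rps18, 26.3% in Rpl10, 29.0% in Rps3a1, 43.6% in Rps2, 72.0% in Rplp2 and 94.8% in Rpl22. The share of reads with more than 1 alignment was 30.4% to 35.3% in 0 hr heart and 41.2% to 49.5% in the 4 series 2 libraries at 6 hr, and 26.8% to 32.8% in 0 hr brain and 32.7% to 38.5% in 24 hr brain, and was thus higher where the member share was higher. In lung this held at some times only. The median share of such reads and the median member share were 56.5% and 1.27% at 0 hr. They went opposite ways at 6 hr (59.0% and 0.558%), 24 hr (55.7% and 1.93%) and 48 hr (50.4% and 1.46%). Both were higher than at 0 hr at 72 hr (58.3% and 3.04%), and both were lower at 168 hr (40.5% and 0.722%). The 6 hr medians in lung include the series 1 library, at 49.3% and 0.0506%. The part of these reads in the results below was not tested.

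Heart ECs showed the broadest change, and it came at 6 hr. Changes are log2 fold differences from the 0 hr libraries of the same tissue, fitted with edgeR's quasi-likelihood test on the counts with time and library series as terms and called at a Benjamini-Hochberg adjusted p under 0.05 over all genes tested. Of the 86 members, 84 passed the filter on low counts (Rpl10l and Rps27rt did not). At 6 hr 62 of these 84 were higher and 0 were lower, where 22.4% of the 16024 genes tested were higher and 20.3% lower. At an unadjusted p under 0.05, 66 were higher and 0 lower, and DESeq2 called 66 higher and 0 lower. The median difference of members was 1.31 against -0.05 over all genes, and 83 of 84 differences were above 0. Without the series 1 library labelled 6 hr, 71 of 84 were higher, 0 lower by the adjusted or the unadjusted p, with a median of 1.64 and all 84 above 0, where 27.8% of all genes were higher and 30.5% lower. With totals of counts on genes in place of TMM scaling, the median of all genes moved to -0.39, that of members to 0.91, and 43 members were higher against 13.1% of all genes.

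Rps18, a protein of the small subunit head, had the largest difference of all 84 members in heart ECs at 6 hr. It stood at 4.44, 4.83, 4.27, 4.17 and 4.70 log2 CPM in the 0 hr libraries and at 8.40, 7.44, 8.83 and 6.76 in the series 2 libraries at 6 hr, with 3.93 in the series 1 library labelled 6 hr. The 4 series 2 libraries were all above the 0 hr ones and the series 1 library was below them. The fitted rise was 3.18 ± 0.58 (SE, adjusted p = 0.0003) and 3.65 ± 0.44 without the series 1 library. Rps3a1, also of the small subunit, was at 5.43, 5.64, 5.59, 5.41 and 6.04 at 0 hr and at 9.27, 8.47, 8.84 and 7.71 at 6 hr, against 5.01 in the series 1 library. It rose by 2.54 ± 0.46 (adjusted p = 0.00029), and by 2.98 without the series 1 library. Rplp2, one of the acidic stalk proteins that recruit elongation factors to the large subunit, was at 5.19 to 5.73 at 0 hr and at 8.76, 7.86, 8.70 and 7.45 at 6 hr, against 5.04. Its rise was 2.46 ± 0.44 (adjusted p = 0.00024), and 2.87 without that library. In each of these genes the series 1 library was below the lowest 0 hr library, while the other 4 were above the highest.

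The rest of the stalk and Rpsa rose too. Rplp1, the partner of Rplp2, rose by 1.48 ± 0.32 (adjusted p = 0.0012) and Rplp0, on which both sit, by 0.78 ± 0.22 (adjusted p = 0.0065), or by 1.84 and 1.05 without the series 1 library. Rpsa, a small-subunit protein also known as the laminin receptor, was low in heart, at -0.41 to 0.45 log2 CPM at 0 hr and 2.09, 2.54, 2.82 and 3.11 in the series 2 libraries at 6 hr, and rose by 2.12 ± 0.43 (adjusted p = 0.00075), or by 2.50 without that library. Over all members, 4 of 84 had their 6 hr heart libraries all above the 0 hr ones, against 3.36% of all genes, and 0 were all below, against 4.85%. Leaving out the series 1 library, this was 63 of 84 against 23.2% of all genes, and 0 below against 25.8%. With that library kept, the rise was seen in both subunits: 36 of 51 large-subunit genes (median 1.14) and 25 of 32 small-subunit genes (median 1.44) were higher. It was seen in 22 of 29 members with a tract (median 1.57) and in 27 of 35 without (median 1.29), and in 43 of 56 members with at least 50% unique stretches and 19 of 28 with fewer. No difference between these classes was tested.

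**Figure D2:**
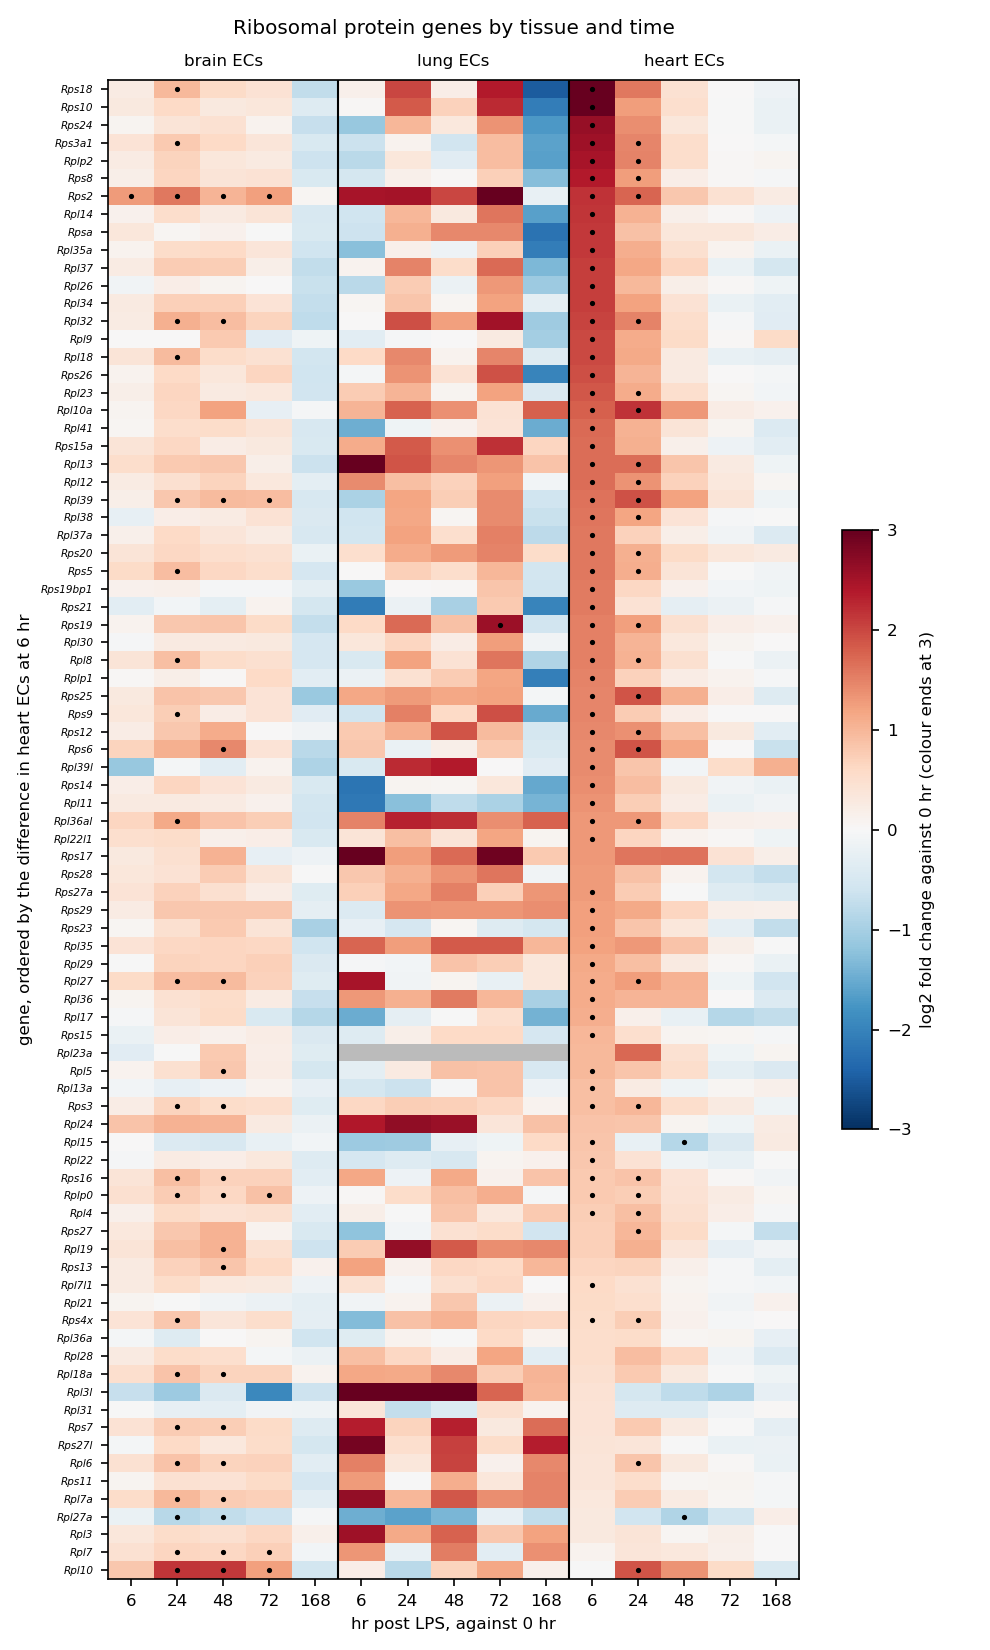
Fitted log2 fold difference from 0 hr of each tested member (rows, ordered by the heart 6 hr value) in brain, lung and heart at 5 times (columns), with a dot where the adjusted p was under 0.05. The heart 6 hr column holds 62 dots, all on rises, and the heart 72 and 168 hr columns hold 0.

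Which members did not pass at 6 hr in heart is as much a part of the pattern. Rpl10, a late-joining large-subunit protein on the X chromosome, was at 2.53 to 3.21 at 0 hr and at 1.90, 3.84, 1.13 and 3.14 at 6 hr, against 2.69 in the series 1 library, with a difference of -0.00 ± 0.41. The groups overlapped. Rpl7 differed by 0.11, Rpl3 by 0.30 and its striated-muscle paralog Rpl3l by 0.43, none past the threshold. With the series 1 library left out, Rpl10 differed by 0.09, Rpl7 by 0.23 and Rpl3l by 0.56, again without passing, while Rpl3 passed with 0.49 (adjusted p = 0.046). EC markers summed to 5255 to 11693 CPM in heart at 6 hr against 11379 to 12899 at 0 hr, and the cardiomyocyte markers to 5789 to 11272 against 4296 to 8798. The 11 neutrophil markers summed to 0.825 to 1.31 CPM at 0 hr, with Camp, Elane, Ly6g and Mmp8 at 0, and to 0.829 to 62.1 at 6 hr. The 6 platelet markers went from 4.20 to 7.83 up to 3.83 to 123 CPM. These 6 hr ranges include the series 1 library. The medians at 0 and 6 hr were 11666 and 6792 CPM for EC markers and 5735 and 5958 for cardiomyocyte markers. For neutrophil markers they were 1.11 and 42.4, and for platelet markers 5.00 and 68.6. The part of these cells in the result was not tested.

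At 24 hr fewer heart members were higher. Of 84 members 28 were higher and 0 lower by edgeR (unadjusted p under 0.05: 58 and 0; DESeq2: 38 and 0), where 9.07% of all genes were higher and 7.11% lower, and the median difference was 0.98. In 44 of 84 members the 24 hr libraries were all above the 0 hr ones, against 18.6% of all genes. Without the series 1 libraries labelled 6 hr, which take part in the fit through the shared spread and the series term, 50 were higher and 0 lower (65 and 1 at an unadjusted p under 0.05) against 13.3% and 12.7% of all genes. Without heart 24 hr replicate 2 the count was 1. In heart at 24 hr the 11 neutrophil markers summed to 8.72 to 33.5 CPM against 0.825 to 1.31 at 0 hr, the 6 platelet markers to 13.7 to 35.0 against 4.20 to 7.83, and the 10 alveolar epithelial markers, with Sftpb at 0 in both, to 184 to 474 against 133 to 204. Their part was not tested. All comparisons of a tissue share its 0 hr libraries, so their counts are not independent.

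Among the members named at 24 hr in heart, Rps2 and Rpl10 show the range of time courses. Rps2, which lies at the entry of the messenger channel, was at 4.80, 4.69, 4.69, 5.32 and 6.12 log2 CPM at 0 hr, at 8.04, 7.27, 8.63 and 7.36 in the series 2 libraries at 6 hr (5.31 in the series 1 library), and at 6.20, 7.83, 6.15 and 7.10 at 24 hr. It rose by 1.74 ± 0.38 at 24 hr (adjusted p = 0.0054), and its 24 hr libraries were all above those of 0 hr, though by little for 2 of them. Rpl10 was at 4.78, 4.95, 5.61 and 5.71 at 24 hr, above all 0 hr libraries, and rose by 1.88 ± 0.46 (adjusted p = 0.011), against -0.00 at 6 hr. Rpl39, a small protein of the exit tunnel, rose by 1.90 (adjusted p = 0.007), Rplp2 by 1.49 ± 0.45 (0.029) and Rpl32 by 1.48 ± 0.49 (0.041). Within series 1 and within series 2, the difference of Rps2 was 1.44 and 2.34, that of Rpl10 2.18 and 1.94, and that of Rplp2 0.79 and 2.09.

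From 48 hr on, few heart members passed the test. At 48 hr 0 of 84 were higher by edgeR (14 at an unadjusted p under 0.05, 4 by DESeq2), where 3.08% of all genes were higher, and the median was 0.33. The 2 that were lower, against 1.11% of all genes, were Rpl15 and Rpl27a, the latter named after its values were seen. Rpl15, a large-subunit protein, was at 5.46 to 5.71 at 0 hr. At 48 hr it was at 5.26 and 5.47 in series 2, 3.53 and 4.65 in series 1 and 4.29 and 3.76 in series 4, so that 1 library reached the 0 hr range. It fell by 0.86 on the log2 scale (adjusted p = 0.044), and by 1.36 within series 1 but 0.29 within series 2. At 72 hr the median was 0.02 and 0 members were higher or lower, at 168 hr it was -0.11 and again 0, in both cases with 0 at an unadjusted p under 0.05 by edgeR and 0 by DESeq2, where 0.275% of all genes at 72 hr and 0% at 168 hr were higher.

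In brain ECs the largest median difference was smaller than in heart, and the most members were called at 24 hr. Whether the brain change at 24 hr differed from that at 6 hr was not tested. At 6 hr 1 of 84 members, Rps2, was higher and 0 were lower (13 and 1 at an unadjusted p under 0.05, 1 and 0 by DESeq2), where 4.21% of the 19234 genes tested were higher and 2.23% lower, and the median was 0.24. Without the series 1 library labelled 6 hr, 11 were higher and 0 lower (24 and 1 at an unadjusted p under 0.05) against 7.63% and 6.71% of all genes, and the median was 0.34. At 24 hr 21 were higher and 1 lower, against 6.52% and 4.66% of all genes, with a median of 0.61 against -0.03 over all genes. In 28 of 84 members the 24 hr libraries were all above the 0 hr ones, against 10.2% of all genes. At 48 hr 17 were higher and 1 lower against 8.11% and 6.12%, with a median of 0.55, and at 72 hr 5 were higher and 0 lower (25 and 2 at an unadjusted p under 0.05, 7 and 1 by DESeq2) against 2.98% and 0.546%, with a median of 0.38. The 24 hr count was 3 without brain 24 hr replicate 2, the 48 hr count was 1 without brain 0 hr replicate 1, and the 72 hr count was 0 without that library.

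Rps2 was higher in brain ECs at every time up to 72 hr. It was at 4.00, 4.02, 3.88, 5.64 and 5.14 log2 CPM at 0 hr, and the first 2 of these, of series 1, and 1 of series 2 were the low ones. At 6 hr it was at 6.57, 5.64, 6.45 and 6.46 in series 2 and at 5.02 in the series 1 library, and at 24 hr at 6.01, 6.61, 6.20 and 6.51, above all 0 hr libraries. The differences at 6, 24, 48 and 72 hr were 1.27 ± 0.28, 1.57 ± 0.31, 1.02 ± 0.28 and 1.24 ± 0.30, with adjusted p values of 0.0056, 0.0023, 0.019 and 0.016. With the series 1 library left out, the 6 hr difference was 1.42 (adjusted p = 0.001). At 168 hr it was at 4.40 to 4.90, inside the 0 hr range.

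Rpl10 had the largest difference of all 84 members in brain at 24 and at 48 hr. In brain it was at 2.75, 2.36, 2.37, 1.64 and 2.44 at 0 hr, at 5.21, 4.08, 5.65 and 5.93 at 24 hr, and at 3.37, 3.42, 5.76, 4.29, 6.07 and 5.93 at 48 hr. Both later groups were above the 0 hr libraries without overlap, and it rose by 2.15 ± 0.34 (adjusted p = 0.00041) and 2.12 ± 0.32 (0.0002). By 168 hr it was at 2.46 to 2.97. Only 26.3% of its 50-base stretches were unique. Rpl32 rose by 1.07 ± 0.30 at 24 hr (adjusted p = 0.024) and Rpl7a by 0.97 ± 0.23 (0.0079), with the Rpl7a libraries at 4.31 to 4.62 at 0 hr and 5.75, 5.48, 6.25 and 6.08 at 24 hr. At 72 hr Rplp0 rose by 0.89 ± 0.22 (0.019) and Rpl7 by 0.72 ± 0.20 (0.037).

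**Figure D3:**
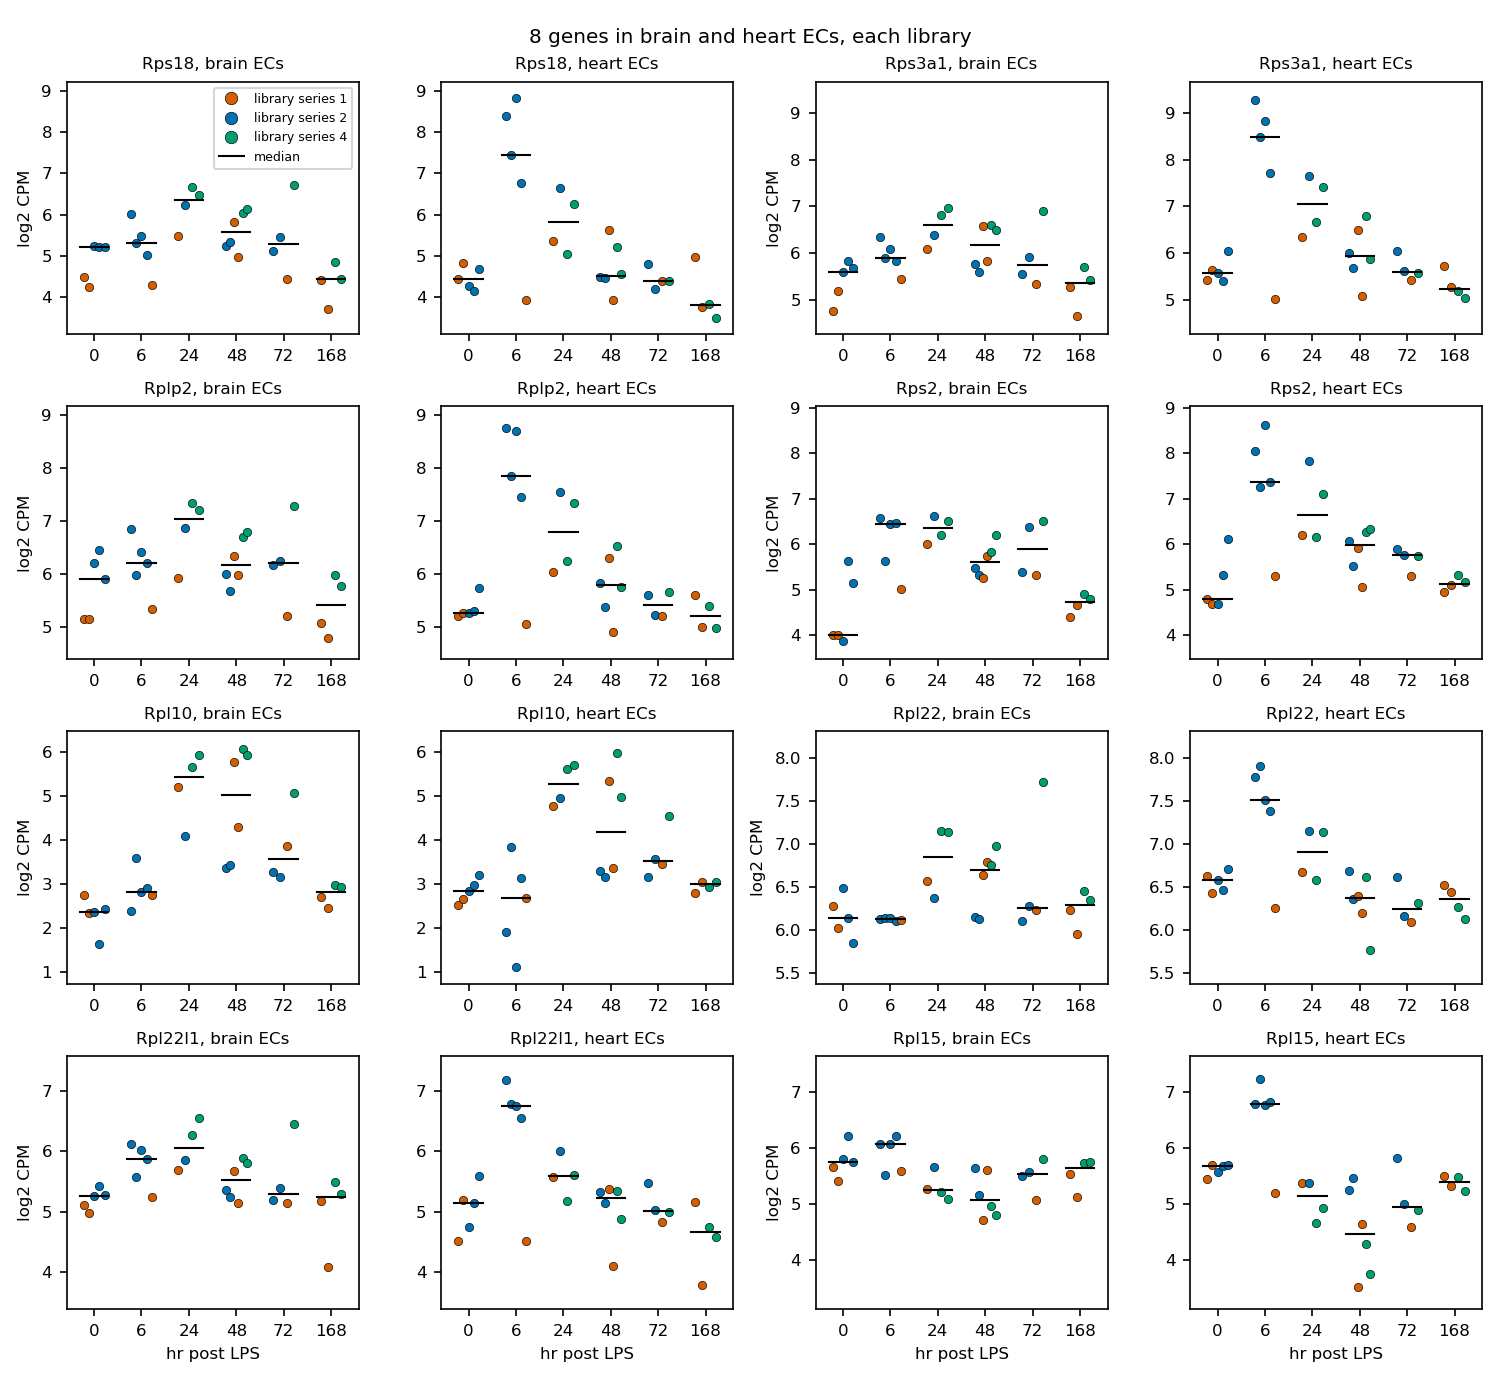
Level in log2 CPM (y axis) of named members in each library by hours after LPS (x axis), 1 panel per gene for brain and for heart, points coloured by library series and a bar at each group median. Heart Rps18 lies at 4.17 to 4.83 at 0 hr and 6.76 to 8.83 in the series 2 libraries at 6 hr, while the series 1 library labelled 6 hr lies at 3.93.

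The brain results did not look the same in each library series. The median difference of members within series 1 and within series 2 was 0.85 and 0.49 at 24 hr, but 1.20 and 0.03 at 48 hr and 0.41 and 0.07 at 72 hr. At 48 hr 0 members were higher within series 1 and 0 within series 2, each with few libraries, so that these counts do not separate the series. Rps2 differed by 1.65 and 0.41 at 48 hr, and Rpl32 by 1.91 and 0.08. Series 4 has no 0 hr libraries and gave no value of its own. One member was lower at 24 and at 48 hr, Rpl27a of the large subunit, named after its values were seen: it was at 4.70, 4.75, 5.51, 5.84 and 5.45 at 0 hr and at 4.08, 4.57, 4.05 and 4.22 at 24 hr. EC markers in brain summed to 2674 to 4857 CPM at 24 hr against 2059 to 4243 at 0 hr, the 10 neuronal markers to 862 to 5831 against 1497 to 6199, and the 6 oligodendrocyte markers to 531 to 4822 against 858 to 5860. The medians at 0, 24 and 48 hr moved further than these ranges. They were 2765, 3995 and 4708 CPM for EC markers and 4174, 1241 and 1137 for neuronal markers. For oligodendrocyte markers they were 4126, 799 and 599, and for the 6 astrocyte markers 1353, 1554 and 1733. The part of these cells was not tested.

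At 168 hr the brain members leaned the other way without passing the test. By edgeR 0 of 84 were higher or lower (0 and 12 at an unadjusted p under 0.05, 0 and 0 by DESeq2), as were 0% of all genes, yet the median was -0.45 against 0.09 over all genes and 4 of 84 differences were above 0. With totals of counts on genes as the scale it was -0.39. Within series 1, the only series with libraries at both times, the median was -0.00.

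Lung ECs gave few calls. By edgeR 0 of 83 members (Rpl23a did not pass the filter there) were higher or lower at 6, 24, 48 or 168 hr, and 1, Rps19, was higher at 72 hr, where 2.56%, 0.363%, 0.428%, 0% and 0.17% of the 17058 genes tested were higher, and 2.27%, 0.0117%, 0.17%, 0.0117% and 0.0234% lower, at 6, 24, 48, 168 and 72 hr. At an unadjusted p under 0.05, 7, 5, 13, 1 and 15 were higher in that order and 5, 1, 1, 11 and 0 lower, and DESeq2 called 7, 0, 1, 0 and 9 higher and 2, 0, 1, 0 and 0 lower. The median differences in order of time were 0.09, 0.77, 0.66, 0.92 and -0.23, where all genes gave -0.42, -0.12, -0.00, -0.04 and -0.00. At 168 hr the direction depended on the scale, with a median of 0.06 by totals, and at 6 hr it was -0.01 by totals. Leaving out the series 1 library labelled 6 hr, which had 284457 counts, 1 member was higher and 0 lower at 6 hr (11 and 3 at an unadjusted p under 0.05) against 2.38% and 1.57% of all genes, and the median was 0.41.

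Rps19, a small-subunit protein whose loss causes an inherited anaemia, was at 5.83, 5.94, 5.65 and 4.03 log2 CPM in the lung at 0 hr and at 7.19, 7.56, 8.37 and 8.10 at 72 hr. The groups did not overlap, and it rose by 2.58 ± 0.56 (adjusted p = 0.039), or by 3.25 within series 1 and 1.57 within series 2. Replicate 4 of the 0 hr lung was the low library, and leaving it out gave 2.21 (adjusted p = 0.19). The call was also lost with the replicate block (adjusted p = 0.2), without the series term (0.056), within either series, and on leaving out any other single 0 hr library (0.051 to 0.18) or 72 hr replicate 3 or 5 (0.19 and 0.14). In 15 of 83 members the 72 hr libraries were all above those of 0 hr, against 3.88% of all genes. In the lung the macrophage markers (9 genes) summed to 988 to 2031 CPM at 72 hr against 302 to 904 at 0 hr, and the 11 neutrophil markers to 749 to 1797 against 43.3 to 208. Their part was not tested.

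Rpl22 itself, whose tagged form was the handle of the precipitation, passed the test in heart at 6 hr and in no other comparison with 0 hr, where its differences ran from -0.51 to 0.44. In heart it was at 6.63, 6.43, 6.58, 6.46 and 6.71 log2 CPM at 0 hr and at 7.78, 7.91, 7.51 and 7.38 in the series 2 libraries at 6 hr, with 6.26 in the series 1 library. The series 2 libraries were above the 0 hr ones, with a rise of 0.80 ± 0.21 (adjusted p = 0.0042) and 1.04 ± 0.18 without the series 1 library. At 24 hr the difference was 0.44 (adjusted p = 0.16). Rpl22l1, the paralog that can take its place in the ribosome, was at 4.52, 5.19, 4.75, 5.14 and 5.59 at 0 hr and 7.17, 6.78, 6.75 and 6.55 at 6 hr, against 4.51, and rose by 1.30 ± 0.31 (adjusted p = 0.0027), or by 1.63 without that library. In brain Rpl22 was at 5.85 to 6.49 at 0 hr, and the groups of 0 and 6 hr overlapped.

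The paralog pairs differed in whether each copy passed in heart at 6 hr. Rpl36al rose by 1.31 while Rpl36a differed by 0.53, Rpl39 rose by 1.64 and Rpl39l by 1.41, Rpl7l1 rose by 0.59 while Rpl7 differed by 0.11, and Rps27 and Rps27l differed by 0.71 and 0.39 without passing. Rps4x, an X-linked gene, rose by 0.56 (adjusted p = 0.043). Leaving out the series 1 library, Rpl36a passed as well, with 0.80 (adjusted p = 0.01), and the others kept their side of the threshold: Rpl36al rose by 1.65, Rpl39 by 1.99, Rpl39l by 1.61, Rpl7l1 by 0.78 and Rps4x by 0.81, and Rps27 and Rps27l differed by 0.69 and 0.60. The difference within a pair was not tested. Rps27 passed at 24 hr, with 1.00 (adjusted p = 0.041).

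Whether a change differed between tissues was tested as a tissue by time term in 1 fit of all 80 libraries. At 6 hr it passed in 27 of 84 members (42 at an unadjusted p under 0.05), against 18.3% of all genes. In 26 of the 27 the brain change was below the heart change, and in 23 the lung change was. The brain against heart contrast alone passed in 2 of the 27, the lung against heart contrast in 24 and the brain against lung contrast in 6. With the series 1 libraries labelled 6 hr left out, 32 passed against 24.2% of all genes. Of these, 31 were below the heart in brain and 29 in lung. The brain against heart contrast then passed in 15 and the lung against heart contrast in 28. At 6 hr, lung replicates 1 and 2, which stay in that fit, held 6.93% and 8.12% of reads on genes. Lung replicate 3 held 33.9%, and the heart libraries at 6 hr held 43.7% to 67.7%. The part of this in the lung contrasts was not tested. At 24 hr 2 passed against 4.11%, and at 48, 72 and 168 hr 0 passed by edgeR (6, 16 and 11 at an unadjusted p under 0.05) against 3.55%, 0.772% and 0.00909%.

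The smallest p values at 6 hr were those of Rplp2, Rps14 and Rps3a1. For Rplp2 (F = 14.4, adjusted p = 0.00049), the brain change was lower than the heart change by 2.18 ± 0.58 on the log2 scale and the lung change was lower by 3.27 ± 0.63. For Rps14, which forms part of the platform of the small subunit, F was 14.2 (adjusted p = 0.00052). Its levels were 7.26 to 7.94 log2 CPM in heart at 0 hr and 7.19 to 9.77 at 6 hr, but 8.34 to 11.09 in lung at 0 hr and 4.86 to 9.59 at 6 hr. The lowest value of each 6 hr group, 7.19 and 4.86, was that of the series 1 library, and in lung it stood for 1 count. In the other 6 hr libraries Rps14 was at 8.62 to 9.77 in heart and 8.73 to 9.59 in lung, and its lung difference was -1.66 (adjusted p = 0.14). Rps3a1 had F = 13.4 (adjusted p = 0.00078). With the series 1 libraries labelled 6 hr left out, F was 15.5 for Rplp2, 15.2 for Rps14 and 15.4 for Rps3a1, with adjusted p values of 0.00014, 0.00017 and 0.00015. At 24 hr the 2 members were Rpl10 (F = 7.78, adjusted p = 0.029) and Rpl3l (F = 7.58, adjusted p = 0.032), and the lung at that time had 2 libraries. For Rpl22 at 6 hr the adjusted p was 0.079, and 0.051 without those libraries.

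At 0 hr the share of members called between EC beds, both directions together, was below that of all genes in each tissue pair. The total called is therefore no result about the members. By direction, the share was above that of all genes for members lower in brain than in lung and for those higher in lung than in heart. In the fit of the 14 libraries at 0 hr, 15 of 84 members were higher and 32 lower in brain than in lung, against 37.9% and 26.4% of all 17730 genes. In brain against heart 15 were higher and 6 lower, against 32% and 22.8%, and in lung against heart 37 were higher and 13 lower, against 29.9% and 31.2%. The medians were -0.28, 0.30 and 0.52, where all genes gave 0.42, 0.09 and -0.09. Without lung replicate 4, 26 were higher and 36 lower in brain against lung, against 46.3% and 27.8% of all genes. With the mouse, as read from the naming of the runs, as a replicate block, 23 were higher in brain than in lung and 20 lower in lung than in heart.

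The first 3 lung libraries at 0 hr held a number of members at far higher levels than the other beds. Those named here had a mean level of at least 5 log2 CPM. Below that level, Rps10 and Rpsa were 5.56 and 4.70 higher in lung than in heart without lung replicate 4. Rps24 was at 8.98, 9.29, 9.38 and 5.50 log2 CPM in lung, 4.04 to 5.54 in brain and 3.63 to 4.16 in heart, and replicate 4 alone lay within the brain range. The difference between lung and heart was 4.86 ± 0.55 (adjusted p = 4.8e-06), and 5.25 without replicate 4. Rplp1 was at 10.74, 11.09, 9.99 and 6.91 in lung, 5.25 to 6.98 in brain and 5.68 to 6.31 in heart, 4.29 higher in lung than in heart and 4.22 lower in brain than in lung. Rps9 was at 11.37, 12.52, 11.78 and 8.54 in lung, 7.21 to 7.84 in brain and 7.76 to 8.06 in heart, and Rps18 and Rps21 were also highest in the first 3 lung libraries. For these genes the first 3 lung libraries lay above every brain and heart library and replicate 4 lay nearer to those. The first 3 held 18.8% to 28.6% of their reads on genes and replicate 4 held 56.2%. The part of this in the levels was not tested.

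Other members were low in lung except in replicate 4. Rpl7 was at 2.82, 2.31, 2.53 and 5.60 in lung, 4.93 to 5.46 in brain and 6.09 to 6.65 in heart. It was 1.36 ± 0.53 higher in brain than in lung (adjusted p = 0.035) and 2.60 higher without replicate 4. Rps27l was at 0.33, -0.28, 0.52 and 4.96 in lung, 4.01 to 5.24 in brain and 5.80 to 6.56 in heart. In both genes replicate 4 of the lung was the only lung library within or close to the brain range. The share of reads with more than 1 alignment was 57.3%, 59.7%, 55.8% and 38.2% in lung replicates 1 to 4, against 26.8% to 35.3% in brain and heart, and its part was not tested.

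Rpl3l separated the heart from both other beds. This paralog of Rpl3 is known from striated muscle. It was at 4.57 to 5.36 log2 CPM in 0 hr heart, -1.87 to -0.25 in brain, and -3.35, 0.63, -1.57 and -3.35 in lung, where -3.35 stands for 0 counts. It was 6.32 ± 0.66 lower in brain than in heart (adjusted p = 1e-06) and all of its 50-base stretches were unique. The cardiomyocyte markers stood at 4296 to 8798 CPM in heart and 42.8 to 92.5 in brain, and their part was not tested. Rpl3 itself was at 4.11 to 4.43 in heart and 3.84 to 4.08 in brain. Per length of exon, Rpl3l reached 19.1 ± 4.81 CPM per kb in heart (SD, n = 5) and Rpl3 5.87 ± 0.56. Since 32.9% of the 50-base stretches of Rpl3 were unique, against 100% in Rpl3l, these levels are not like for like.

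**Figure D4:**
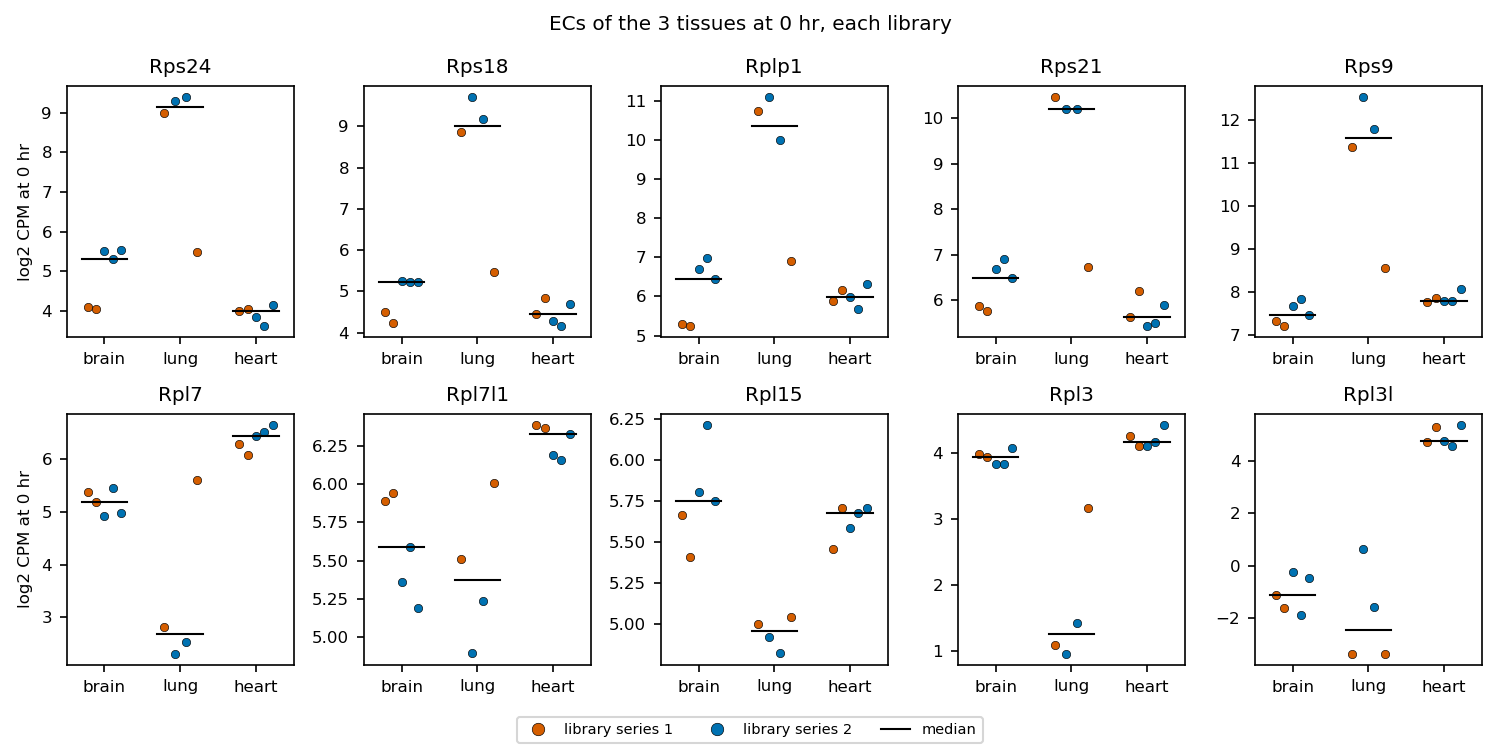
Level in log2 CPM (y axis) of members named for their differences between tissues at 0 hr, in each 0 hr library of brain, lung and heart (x axis), points coloured by library series and bars at the medians. In Rps24 and Rps18 3 lung libraries lie between 8.87 and 9.70 and lung replicate 4 at 5.50 and 5.47, while brain and heart libraries lie between 3.63 and 5.54.

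Per length of exon at 0 hr, ribosomal protein genes spanned a wide range, although the proteins are made in nearly equal numbers. In heart Rpl8 was at 434 CPM per kb and Rpl4 at 202, while Rpl13 was at 0.285 and Rpsa at 0.340. In brain Rpl8 stood at 393, Rps15 at 253 and Rpl4 at 202, and in lung Rplp1 at 2524, Rps9 at 1230 and Rps21 at 1190. Rpl10l and Rps27rt were at 0 in all 3. As a description over the 86 genes, which share libraries and are not replicates, the Spearman correlation of this level with the unique share of the gene was 0.29, 0.34 and 0.34 for brain, lung and heart.

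Other parts of the translation machinery moved along in the heart at 6 hr. Of 56 ribosome biogenesis genes tested, 52 were higher and 0 lower (53 and 0 at an unadjusted p under 0.05), with a median of 1.71. Among them Nop58, a core protein of the particles that methylate ribosomal RNA, rose by 2.23 ± 0.46 and Ncl, the abundant nucleolar protein nucleolin, by 1.82 ± 0.37, both named after their values were seen. Of the initiation factor genes 28 of 36 were higher (median 0.67), of the polymerase I genes, which serve ribosomal RNA synthesis, 11 of 15 (1.04), and of the elongation and termination genes 7 of 10, with 1 lower. Of 76 mitochondrial ribosomal protein genes 42 were higher and 3 lower (0.58), and of 21 non-ribosomal TOP genes 11 were higher (0.47). Of the 37 -ps genes tested, 29 were higher and 1 lower (1.57). The background was the 22.4% and 20.3% of all genes given above. With the series 1 library left out, the counts higher were 53 of 56 biogenesis genes (median 2.08), 29 of 36 initiation factor genes (0.89), 12 of 15 polymerase I genes (1.28), 7 of 10 elongation and termination genes (1.49), 53 of 76 mitochondrial ribosomal protein genes (0.80) and 12 of 21 non-ribosomal TOP genes (0.59), with 0, 0, 0, 1, 5 and 0 lower, against 27.8% and 30.5% of all genes.

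The stress and growth signalling lists gave different counts. Of 24 genes of the integrated stress response, 17 were higher and 1 lower in heart at 6 hr (median 1.31). Atf4, its central transcription factor, rose by 3.28 ± 0.51 and Eif2ak2, the kinase PKR that is induced by interferon, by 2.90 ± 0.34. Of 21 genes of mTORC1 and TOP control, 4 were higher and 4 lower, with a median of 0.07. The 4 that rose were Larp1, which binds TOP messenger RNAs, by 1.99, Larp4b by 1.46, Eif4ebp1 by 1.44 and Larp4 by 1.10, named after their values were seen. The 4 that fell were Eif4ebp2, like Eif4ebp1 a repressor of cap-dependent initiation, by 1.47, Tsc2, a brake on mTORC1, by 1.14, and, named after their values were seen, Castor1 by 0.82 and Mtor, the kinase itself, by 0.49. These counts are at the background share of all genes in both directions. Leaving out the series 1 library gave 20 higher and 1 lower for the stress response (median 1.71) and 6 and 5 for mTORC1 and TOP control (0.12).

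In brain the biogenesis and initiation lists held more rises than the mitochondrial ribosomal list, a difference that was not tested. At 24 hr, 24 of 56 biogenesis genes were higher and 0 lower (45 and 0 at an unadjusted p under 0.05; median 0.76), and 9 of 36 initiation factor genes (0.42), whereas of 76 mitochondrial ribosomal protein genes 1 was higher and 2 were lower (0.01). At 48 hr the counts were 22, 7, and 1 and 3. Ddx21, a nucleolar helicase, rose by 1.64 at 24 hr, and Eif6, which keeps the subunits apart, and Gnl3, the nucleolar protein nucleostemin, by 1.27 and 1.26 at 48 hr. At 6 hr 4 of 56 biogenesis genes were higher in brain, and 22 without the series 1 library labelled 6 hr. In lung at 6 hr 3 of 56 were higher, Nop58 and Tcof1 among them by 4.64 and 3.47, and 4 without the series 1 library, and from 24 hr on 0 were, by edgeR (2, 4, 8 and 0 at an unadjusted p under 0.05 at 24, 48, 72 and 168 hr).

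**Figure D5:**
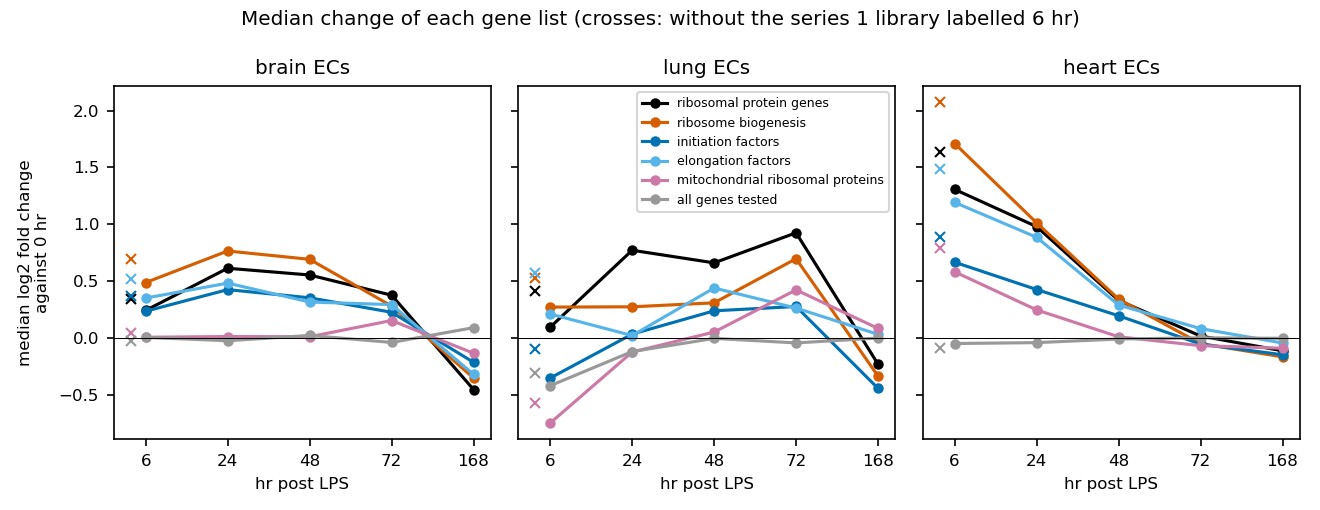
Median fitted log2 fold difference from 0 hr (y axis) of the members, of other translation gene lists and of all genes tested, by hours after LPS (x axis), 1 panel per tissue, with crosses for the 6 hr value without the series 1 library. At 6 hr in heart the members lie at 1.31, ribosome biogenesis genes at 1.71 and all genes at -0.05.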

How the data were processed

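RNA bound to HA-tagged ribosomes was sequenced from TruSeq mRNA libraries (Illumina). The authors aligned reads to mm10 with STAR 2.4.2 and deposited raw counts per Ensembl gene and run from HTSeq 0.6.1, and the annotation release and strand setting are not given in the sources used here. HTSeq's summary lines (no feature, ambiguous, not unique) were kept out of library sizes and tests. Members and gene lists were chosen with earlier results of these data known.

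Runs of 1 tissue, time and replicate were summed, and 18 of 98 libraries with under 3% of reads on genes were left out. Library series were read from the naming of the runs. Symbols came from the GENCODE annotation given with GRCm38, and 52403 of 52550 identifiers had one. Counts were tested with edgeR 4.0.16 (quasi-likelihood, TMM, filterByExpr, 2-sided) in R 4.3.3, per tissue with time and series as terms, for the 0 hr libraries with tissue and series, and over all groups for the tissue by time term. P-values were adjusted by Benjamini-Hochberg over all genes tested, with a threshold of 0.05. The labels name no animal, and the naming of the runs ties 0 hr libraries of different tissues to mice, which served only as an alternative block. Within a tissue p-values measure the spread between libraries, which may be technical. Levels are given as log2 CPM (prior count 2). Tested on simulated data, edgeR recovered 100% of 4-fold and 33% of 2-fold changes in heart at 6 hr. The simulation gave every gene the same spread and held no series effect and no library off its label. Its rates therefore do not give the power of the test in the real libraries.

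Named genes were chosen by role (Rpl22, Rpl22l1, Rpsa, the stalk proteins and paralog pairs), as the 3 largest rises and falls past the threshold per tissue and time and the 5 largest each way per tissue pair at a mean level of at least 5 log2 CPM, as the 3 smallest interaction p-values per time, and for other lists as the 2 largest rises and falls. Alternatives were DESeq2 1.42.0, RLE size factors, total counts, no filter, no series term and a replicate block. Others were a minimum of 1000000 counts and leaving out each library of the groups compared. Chosen after seeing the data were each library series alone and leaving out the series 1 libraries labelled 6 hr. Replicate numbers were not used to pair libraries, since deviations of same-numbered libraries did not all correlate above 0.1 in any comparison. Figures were drawn with matplotlib 3.10.9.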

Additional observations from a re-analysis of the deposited data

Results flagged for a closer look

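In 10 of 59 groups of 4 to 10 libraries, 1 library lay outside Dixon's 95% limit for its group, where chance gives about 1 in 20. The member share was 1.46% in brain 72 hr replicate 5 against 0.557% to 0.629% in the other 3, 0.760% in lung 48 hr replicate 1 against 1.40% to 1.63%, and 0.595% in heart 168 hr replicate 1 against 0.342% to 0.383%. Lung 0 hr replicate 4 stood apart in 4 genes, with Rps19 at 4.03, Rpl7 at 5.60, Rps24 at 5.50 and Rps21 at 6.72 log2 CPM, where the other 3 lay at 5.65 to 5.94, 2.31 to 2.82, 8.98 to 9.38 and 10.19 to 10.46. Rpl22l1 was at 4.51 in heart 6 hr replicate 5, the series 1 library that carries the 6 hr label, against 6.55 to 7.17. Smaller gaps were those of Rplp2 in heart 0 hr replicate 5, at 5.73 against 5.19 to 5.30, and of Rplp0 in brain 0 hr replicate 4, at 5.96 against 5.64 to 5.71.

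The change from 0 hr differed between the 3 tissues in 27 of 84 members at 6 hr and in 2 at 24 hr by the edgeR interaction test. The statistics were F = 14.4 for Rplp2, 14.2 for Rps14 and 13.4 for Rps3a1 at 6 hr, and 7.78 for Rpl10 and 7.58 for Rpl3l at 24 hr.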

How the results depend on the processing

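Counts are members higher at the time named unless given as lower. Reported counts were 1, 21, 17 and 5 for brain at 6, 24, 48 and 72 hr, 62 and 28 for heart at 6 and 24 hr and 1 for lung at 72 hr. DESeq2 moved brain 48 hr to 29, lung 6 hr to 7 (2 lower), lung 48 hr to 1 (1 lower), lung 72 hr to 9, heart 48 hr to 4 and brain 72 hr to 1 lower. RLE factors moved lung 6 hr to 2. Without a filter brain 6 hr gave 2, lung 6 hr 5 (2 lower), lung 72 hr 2 and heart 48 hr 4, and the interaction 2, 6 and 6 at 48, 72 and 168 hr. Without the series term brain gave 36 at 24 hr and 3 at 72 hr, lung 0 at 72 hr, heart 43 at 24 hr and 5 at 48 hr (1 lower), brain against lung 9, and the 24 hr interaction 0. With at least 1000000 counts lung gave 1 at 6 hr and 2 at 72 hr. For the settings whose construction does not show it, the cause was not tested.

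With the replicate block, brain gave 3, 6 and 3 at 6, 24 and 72 hr, heart 6 at 24 hr, lung 0 at 72 hr, and 0 lower in brain and heart at 48 hr, while heart at 6 hr gave 55. A block by mouse at 0 hr, with mice read from the naming of the runs, moved brain against lung to 23 higher and lung against heart to 20 lower. Correlations of same-numbered libraries ran from -0.54 to 0.66, so the numbers were not taken as pairs.

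Within series 1 alone, which holds 1 or 2 libraries per group, the counts were 0 in brain at 6, 24, 48 and 72 hr, in heart at 6, 24 and 48 hr and in lung at 72 hr. Within series 2 they were 7, 10, 0 and 0 in brain, 0 in lung at 72 hr, 70 and 39 in heart at 6 and 24 hr and 0 lower in heart and brain at 48 hr, and for the tissues at 0 hr 27 in brain against lung, 33 in brain against heart and 20 lower in lung against heart. Series 1 reversed 12 heart values at 6 hr, its only library at that time being the one near 0 hr: Rps18 -0.69, Rps3a1 -0.50, Rplp2 -0.16, Rpl22 -0.25, Rpl22l1 -0.36, Rpl36al -0.47, Rpl39 -0.28, Rpl7l1 -0.25, Rplp0 -0.36, Rplp1 -0.54, Rps4x -0.52 and Rpsa -0.19. Without the series 1 libraries labelled 6 hr, brain 6 hr gave 11, lung 1 at 6 hr and 2 at 72 hr, heart 50 at 24 hr and 2 at 48 hr, and the 72 hr interaction 2.

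Libraries of the groups compared were left out in turn, and those of other times stayed in the fit. Without the series 1 library labelled 6 hr, heart at 24 hr gave 50 and brain at 72 hr gave 7, outside the ranges below. Leaving out libraries of the groups compared gave 1 to 11 and 3 to 22 in brain at 6 and 24 hr, with 0 to 1 lower at 24 hr. At 48 and 72 hr it gave 1 to 27 (1 to 2 lower) and 0 to 4 (0 to 1 lower) in brain. In heart at 6, 24 and 48 hr it gave 52 to 71, 1 to 26 and 0 to 4 (0 to 2 lower). It gave 0 to 4 (0 to 15 lower, the highest without lung 6 hr replicate 3), 0 to 1 and 0 to 1 in lung at 6, 48 and 72 hr. At 0 hr it gave 9 to 26 and 29 to 36 lower for brain against lung, 13 to 16 and 3 to 6 lower for brain against heart, and 34 to 38 and 11 to 20 lower for lung against heart. Lung had 2 libraries at 24 hr, and its counts on genes went down to 284457. The interaction was not refitted with DESeq2, a block or single libraries left out. With the 18 libraries under 3% of reads on genes kept as well, the median difference of members was 1.34 in heart at 6 hr and 0.71 in brain at 24 hr, and 1.02, 1.26 and 0.26 in lung at 24, 72 and 168 hr.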

Other observations

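Non-ribosomal TOP genes were higher in brain in 6 of 21 at 24 hr and 5 of 21 at 48 hr, with medians of 0.42 and 0.39, and in heart in 3 of 21 at 24 hr. At 168 hr in brain, where 80 of 84 members had fitted differences below 0, the medians of the biogenesis, initiation factor and -ps lists were -0.35, -0.22 and -0.57, and 0 genes of any of them passed the test by edgeR, with 0 and 6, 1 and 2, and 1 and 13 genes higher and lower at an unadjusted p under 0.05.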
